A study of Mus musculus with 22 samples.

Results

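The genes described here encode the nuclear subunits of complex III, complex IV and the ATP synthase, together with cytochrome c, measured in lung metastases of mice. They were taken by symbol from the authors' array table: symbols beginning with Uqcr and the gene Cyc1 for complex III, symbols beginning with Cox4, Cox5, Cox6, Cox7 or Cox8 for complex IV, symbols beginning with Atp5 for the ATP synthase, and Cycs for cytochrome c. This gave 45 of the 19505 genes with a symbol, with 1 probe set per gene, namely 9 genes of complex III, 18 of complex IV, 17 of the ATP synthase, and Cycs. The symbol rule itself uses no expression differences, but the members were chosen with earlier results of these data known. Of the 45 genes, 44 passed the filter on low values and were tested. The exception was Cox7b2, an isoform restricted to testis, whose log2 signal lay between 3.32 and 4.15 in the 22 arrays.

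The metastases arose from NMuMG cells, a mouse mammary epithelial line, that carried the ErbB2 oncogene and were given by the tail vein. The NMuMG-ErbB2/PGC-1alpha line also overexpressed PGC-1alpha, and the NMuMG-ErbB2/VC line, called control here, is its control. ErbB2 is therefore shared by all 4 groups. Recipient mice were treated for 1 week with phenformin or with PBS; phenformin is a biguanide drug and blocks complex I of the respiratory chain. The control line had 5 arrays with PBS and 5 with phenformin, and the PGC-1alpha line had 6 with each. Each array was made from 10 ng of RNA of laser-captured tissue, and the labels give neither the number of animals nor their strain, age or sex. So the p-values reflect only how these samples vary, and that variation may be technical. Whether a line is 1 clone, and which promoter drives PGC-1alpha, is not given in the sources used here.

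Complex III passes electrons from ubiquinol to cytochrome c, complex IV passes them from cytochrome c to oxygen, and both pump protons across the inner mitochondrial membrane. The ATP synthase lets the protons flow back through its membrane ring, which turns a central shaft inside the catalytic F1 head, while a peripheral stalk keeps the head from turning along. Nuclear genes encode most of these subunits, and PGC-1alpha is a transcriptional coactivator known for raising their transcription together with the factors NRF1, ERRalpha and GABP. The subunits encoded by mitochondrial DNA were not analysed here.

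The values are log2 signals normalised by the authors. Array medians lay between 6.55 and 6.64. Under phenformin they were 6.61 to 6.64 in the PGC-1alpha line and 6.55 to 6.60 in the control line, without overlap. Under PBS the medians of the lines overlapped. All 9 listed markers of mammary epithelium were measured. Of these, Krt19 was lower in PGC-1alpha metastases under phenformin, and in the average over treatments Cdh1 and Krt19 were lower and Erbb2 was higher. The median difference of the 9 was -0.14 under PBS and -0.12 under phenformin. Without control replicate 3 under phenformin, an array described below, 0 of the 9 were called under phenformin (median -0.095). Krt19 was then called lower under PBS, and in the average Krt19 was lower and Erbb2 higher, with Cdh1 not called. The part of these markers in the results below was not tested. Ppargc1a, which encodes PGC-1alpha, read 7.70, 7.20, 8.24, 7.87 and 6.69 in the control arrays and 8.46 to 9.38 in the PGC-1alpha arrays with PBS, without overlap (difference 1.36, standard error (SE) 0.31, limma adjusted p = 0.0198). Under phenformin the arrays overlapped (difference 0.59, SE 0.31, adjusted p = 0.166). A gene is called where its Benjamini-Hochberg adjusted p from limma, taken over all 15545 tested genes, was under 0.05, and all tests were two-sided. In captured tissue, fewer cells of a type and less RNA per cell cannot be told apart.

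The array of control replicate 3 under phenformin stood apart. Of 8 heart and skeletal muscle markers, 5 were highest in this array. They included the myosin genes Myh6 (9.03, against 4.91 to 6.15 in the other 21 arrays), Myl7 (10.17 against 5.19 to 6.77) and Myl4 (9.97 against 6.14 to 7.60), known from atrial heart muscle. Ckm was highest there by a small margin (6.29 against 5.16 to 6.27). Actc1 (8.3 against 7.43 to 8.8) and Acta1 (6.1 against 5.75 to 6.26) lay within the range of the other arrays. Nppa read 5.3, at the low end of the other arrays (5.3 to 6.54). The mean of the 8 markers was 8.19 in this array and 6.32 to 7.12 elsewhere. Of the 44 tested members, 15 had their highest value of all 22 arrays there, comprising 4 of complex III, 7 of complex IV and 4 of the ATP synthase. The calls and medians under phenformin are therefore also given without it.

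**Figure D1:**
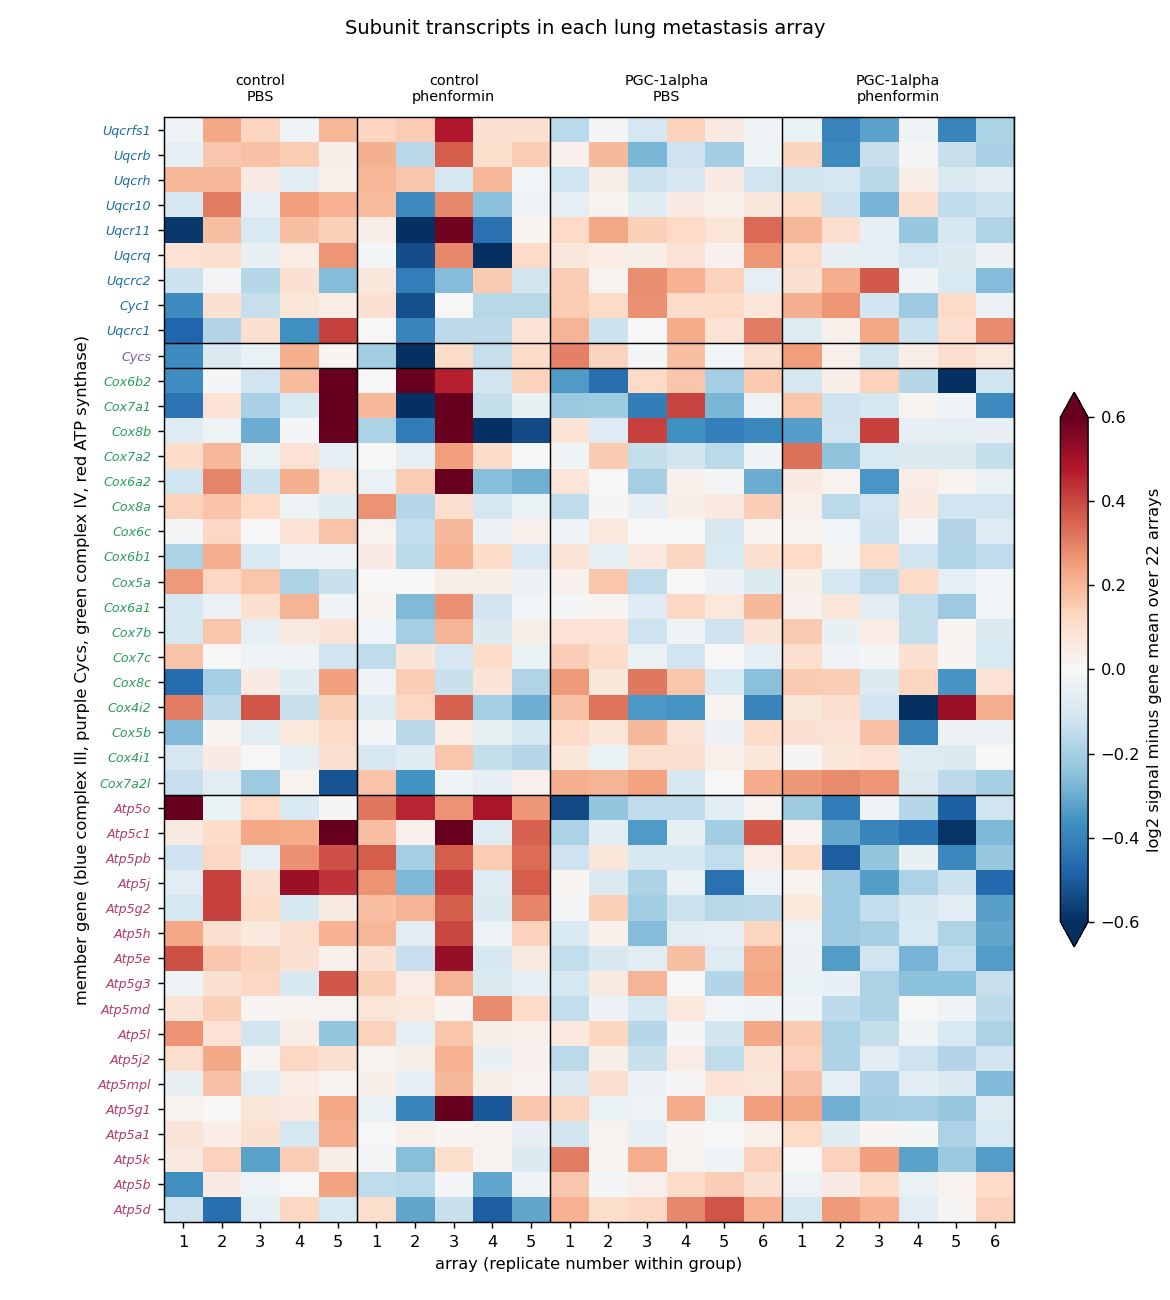
Heat map of the 44 tested members (rows, by complex) in the 22 arrays (columns, by group). Colour gives the log2 signal minus the mean of the gene over all arrays, and colours saturate at 0.6 in either direction. Blue predominates for Atp5o, Atp5c1, Atp5pb and Atp5h in the 6 PGC-1alpha arrays under phenformin, and the third control array under phenformin is red for many genes, with Cox8b at 7.97.

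The first question the design poses is whether these transcripts differed between PGC-1alpha and control metastases under PBS. None of the 44 members passed in this comparison, where 1.21% of all tested genes were called higher and 1.72% lower in PGC-1alpha metastases. Differences are given on the log2 scale as PGC-1alpha minus control throughout. The median difference was 0.00 over the 9 genes of complex III, -0.05 over the 17 tested genes of complex IV and -0.10 over the 17 genes of the ATP synthase, beside 0.01 over all tested genes. At an unadjusted p under 0.05 there were 5 members. Atp5j (-0.41, SE 0.14, adjusted p = 0.111), Atp5c1 (-0.35, SE 0.15, adjusted p = 0.208) and Atp5o (-0.34, SE 0.14, adjusted p = 0.189) had negative differences. Atp5d (0.34, SE 0.12, adjusted p = 0.114) and Cox7a2l (0.31, SE 0.13, adjusted p = 0.182) had positive ones.

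Under phenformin, 6 of the 44 members were lower in PGC-1alpha than in control metastases and 0 were higher. In this comparison 11.1% of all tested genes were called lower and 10.0% higher. The 6 were Uqcrfs1 of complex III and Atp5o, Atp5c1, Atp5pb, Atp5g2 and Atp5h of the ATP synthase. They make up 1 of 9 genes of complex III (11.1%), 0 of 17 of complex IV and 5 of 17 of the ATP synthase (29.4%). The median difference was 0.08 for complex III, -0.03 for complex IV and -0.20 for the ATP synthase, beside 0.00 over all tested genes. Without control replicate 3 under phenformin 3 genes were called, namely Atp5o (-0.62, SE 0.15, adjusted p = 0.0088), Uqcrfs1 (-0.34, SE 0.10, adjusted p = 0.0259) and Atp5c1 (-0.45, SE 0.15, adjusted p = 0.0385), beside 10.5% of all tested genes called lower and 8.69% called higher. The medians were then 0.126 for complex III, 0.041 for complex IV and -0.163 for the ATP synthase, so the complex IV median changed sign. Leaving out PGC-1alpha replicate 2 or control replicate 5 under phenformin also left 3. With all arrays kept and each centred on its median, 5 were called, Atp5d higher and Atp5c1, Atp5o, Atp5pb and Uqcrfs1 lower. Of all tested genes, 2006 were then called higher and 1416 lower.

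Averaged over both treatments, 8 members passed. Atp5o, Atp5c1, Atp5j, Atp5pb, Atp5g2, Atp5h and Uqcrfs1 were lower in PGC-1alpha metastases, and Atp5d was higher. Of all tested genes, 13.3% were called lower and 11.3% higher in this comparison. The ATP synthase had 6 of 17 genes called lower (35.3%) and 1 called higher, complex III had 1 of 9 called lower, and complex IV had 0 of 17. Median differences were 0.06 for complex III, -0.05 for complex IV and -0.15 for the ATP synthase, beside 0.02 over all genes. The averaged differences were -0.47 (SE 0.10, 1.38-fold lower, adjusted p = 0.00184) for Atp5o, -0.45 (SE 0.10, 1.37-fold lower, adjusted p = 0.00416) for Atp5c1 and -0.30 (SE 0.09, 1.23-fold lower, adjusted p = 0.0186) for Atp5pb. They were -0.27 (SE 0.07, 1.2-fold lower, adjusted p = 0.0112) for Uqcrfs1, -0.24 (SE 0.08, 1.18-fold lower, adjusted p = 0.0274) for Atp5g2 and -0.24 (SE 0.07, 1.18-fold lower, adjusted p = 0.0145) for Atp5h. Atp5j also fell and Atp5d rose, with the values given for each gene. Without control replicate 3 under phenformin 9 members passed, with Uqcrh (-0.18, adjusted p = 0.0417) in addition to these 8. Of the other scalings, centring each array on its median called the same 7 members lower and Atp5d higher. The other 2 gave another split: quantile normalisation applied again and cyclic loess each called 6 members higher (Atp5d, Cox7a2l, Cyc1, Cycs, Uqcrc1 and Uqcrc2) and 4 lower (Atp5c1, Atp5h, Atp5j and Atp5o).

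**Figure D2:**
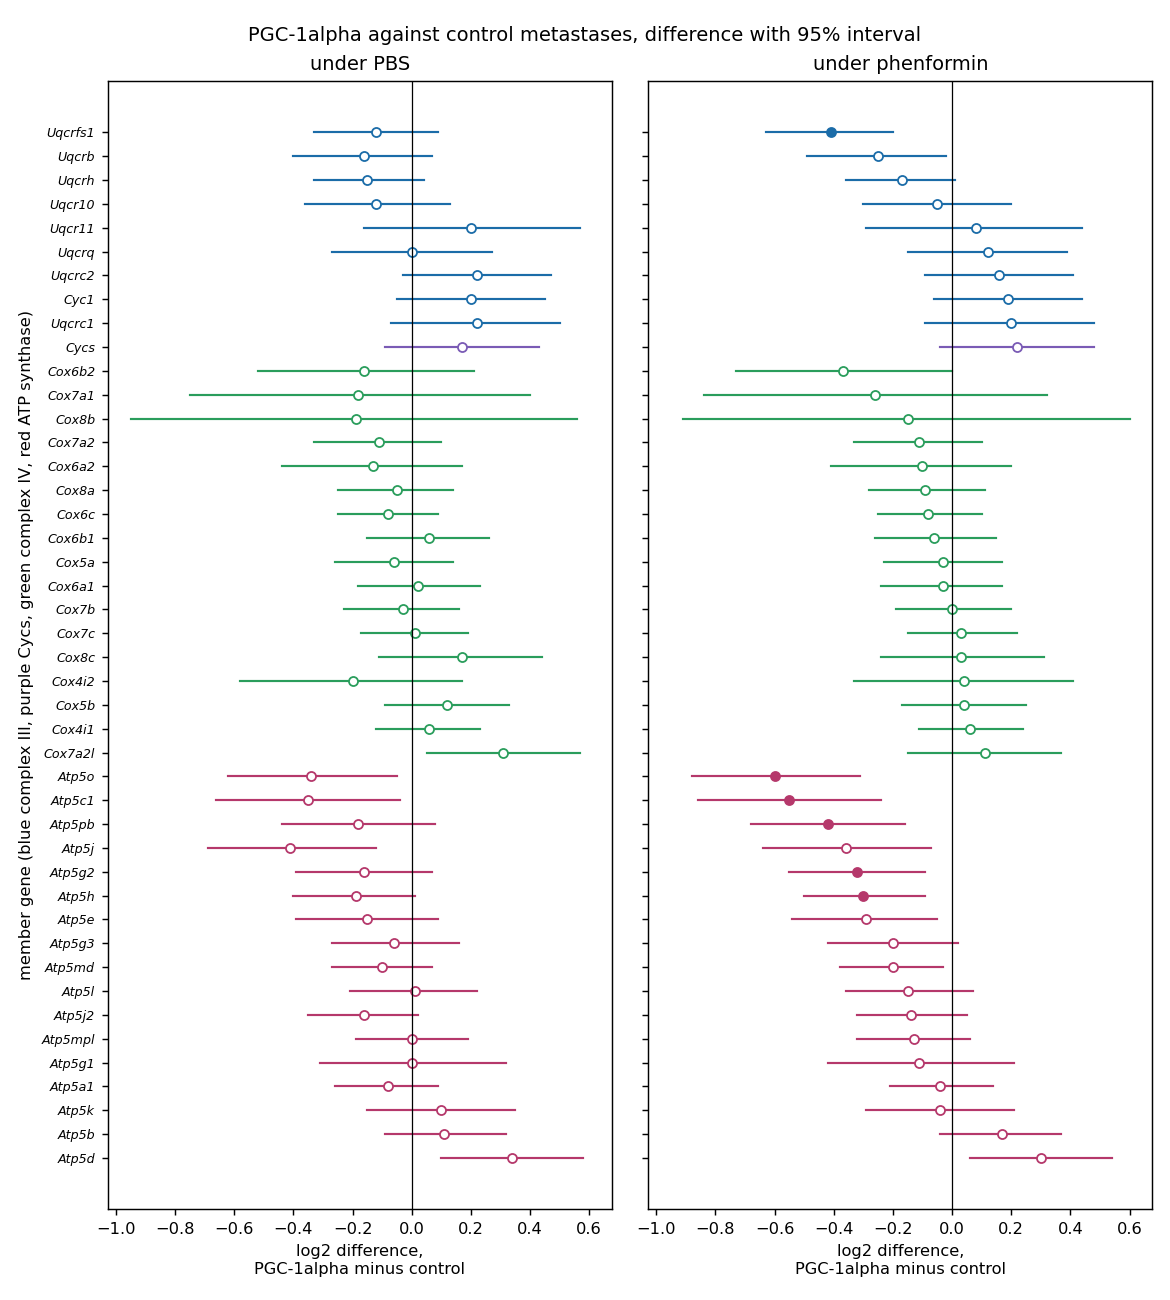
Log2 difference between PGC-1alpha and control metastases for each tested member, under PBS (left) and under phenformin (right). Points are estimates from limma, bars are 95% intervals, and filled points passed at an adjusted p under 0.05. Filled points appear only in the right panel, at Uqcrfs1 and at 5 genes of the ATP synthase, the largest at -0.60 for Atp5o.

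Of the 6 ATP synthase genes called lower in the average, 4 encode the peripheral stalk, beside 13.3% of all tested genes called lower. Its 4 nuclear subunits are Atp5o (the oligomycin sensitivity conferring protein at the top of the stalk), Atp5pb (subunit b), Atp5h (subunit d) and Atp5j (coupling factor F6). All 4 had negative differences in both treatments, with medians of -0.26 under PBS and -0.39 under phenformin. Under phenformin 3 of them passed, beside 11.1% of all tested genes called lower. Without control replicate 3 under phenformin, Atp5o alone of the 4 passed in that comparison. This grouping within the enzyme was made after the values were seen, so its count carries no test.

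Atp5o had log2 signals of 10.80, 10.94, 10.75, 10.97 and 10.74 in the 5 control arrays under phenformin. In the 6 PGC-1alpha arrays it ran from 9.99 to 10.46 with a median of 10.29. All 6 PGC-1alpha arrays lay below all 5 controls. The difference was -0.60 (SE 0.14, 1.51-fold lower, limma adjusted p = 0.00619). Under PBS the control arrays gave 11.25, 10.44, 10.60, 10.39 and 10.49, and the PGC-1alpha arrays ran from 9.94 to 10.50 with a median of 10.33. There the groups overlapped, and control replicate 1 stood above the rest.

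Atp5pb read 8.5, 7.93, 8.5, 8.29 and 8.47 in the control arrays under phenformin and 7.64 to 8.25, median 7.90, in the PGC-1alpha arrays. Control replicate 2 lay among the PGC-1alpha values, and the other 4 controls lay above all of them. The difference was -0.42 (SE 0.13, 1.34-fold lower, adjusted p = 0.0239). It no longer passed without control replicate 3 under phenformin (-0.38, SE 0.14, adjusted p = 0.0529), with quantile normalisation applied again (-0.27, adjusted p = 0.129) or with cyclic loess (-0.30, adjusted p = 0.0952). Atp5h read 11.87, 11.60, 12.07, 11.64 and 11.81 in the same controls and 11.36 to 11.64, median 11.48, in PGC-1alpha metastases. Its groups overlapped slightly, with 5 of 6 PGC-1alpha arrays under the lowest control (-0.30, SE 0.10, 1.23-fold lower, adjusted p = 0.0366), and without control replicate 3 its adjusted p was 0.102. The call was also lost with quantile normalisation applied again (adjusted p = 0.0521), with cyclic loess (adjusted p = 0.0798) and with the replicate number as a block (adjusted p = 0.0595).

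Atp5j had differences of similar size in both treatments. The control arrays under PBS gave 10.51, 10.99, 10.67, 11.09 and 11.01, and the PGC-1alpha arrays gave 10.13 to 10.59, median 10.51. Only control replicate 1 reached into the PGC-1alpha range. The difference was -0.41 under PBS (adjusted p = 0.111) and -0.36 under phenformin (SE 0.14, adjusted p = 0.064), and averaged over treatments it passed (-0.38, SE 0.10, 1.30-fold lower, adjusted p = 0.00735). Atp5j and Atp5o both lie on chromosome 16. The 491 tested genes of that chromosome had a median difference of -0.14 under PBS and -0.15 under phenformin. Under phenformin 24.4% of them were called lower, beside 11.1% of all tested genes. The part of this in the result for Atp5j and Atp5o was not tested.

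**Figure D3:**
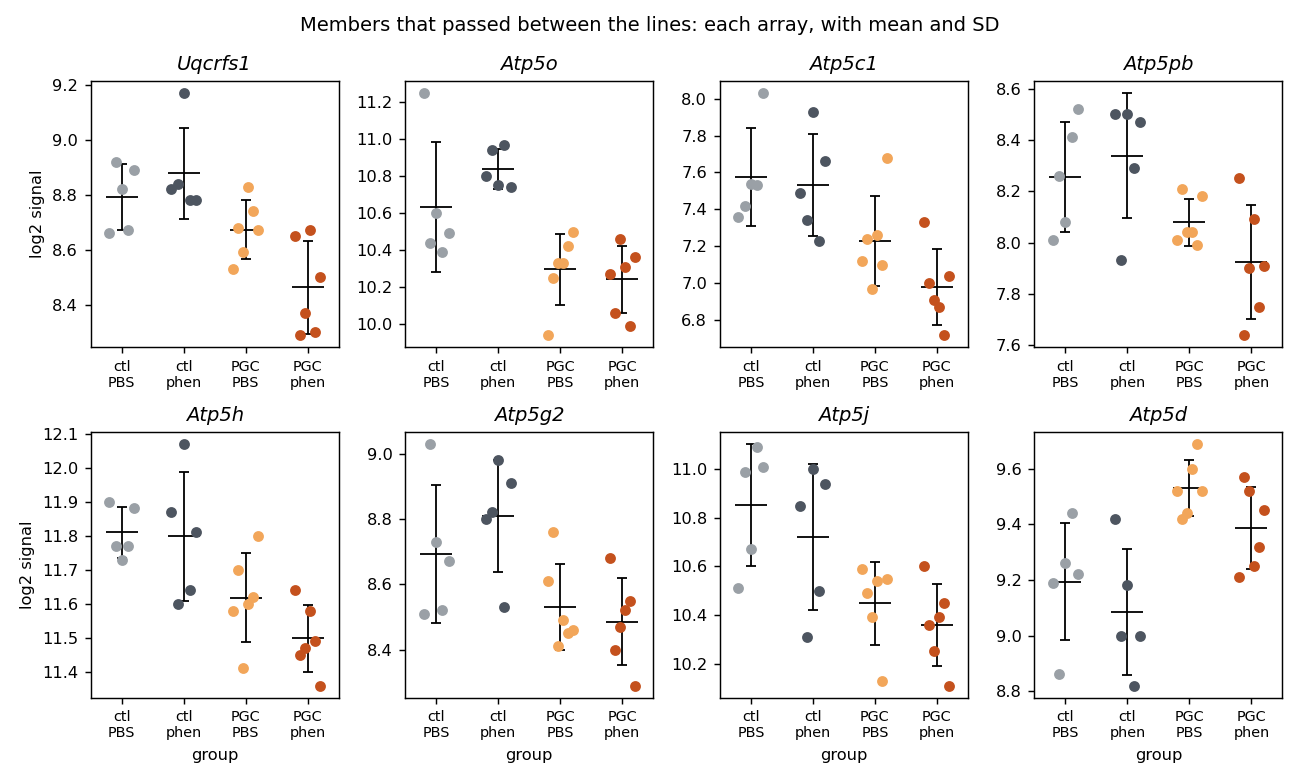
Log2 signal in each array of the 8 members that passed in at least 1 comparison of the lines, by group (ctl, control; PGC, PGC-1alpha; phen, phenformin). Dots are arrays, and the black marks give the mean and SD of 5 control or 6 PGC-1alpha arrays. Atp5o and Uqcrfs1 under phenformin show no overlap between the lines, and Atp5d alone is higher in PGC-1alpha metastases.

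The F1 head moved in both directions. Atp5c1, the gamma subunit that forms the turning shaft, read 7.49, 7.34, 7.93, 7.23 and 7.66 in control and 6.72 to 7.33, median 6.96, in PGC-1alpha metastases under phenformin. Of the 6 PGC-1alpha arrays, 5 lay under the lowest control. The difference was -0.55 (SE 0.15, 1.46-fold lower, adjusted p = 0.0139). Under PBS the controls read 7.36, 7.42, 7.54, 7.53 and 8.03, and PGC-1alpha arrays read 6.97 to 7.68, median 7.18, again with 5 of 6 under the lowest control.

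Atp5d, the delta subunit at the foot of that shaft, went the other way. It read 9.19, 8.86, 9.26, 9.44 and 9.22 in control and 9.42 to 9.69, median 9.52, in PGC-1alpha metastases under PBS. Only control replicate 4 reached the PGC-1alpha range. Under phenformin the controls read 9.42, 9.0, 9.18, 8.82 and 9.0, and the PGC-1alpha arrays 9.21 to 9.57, median 9.38. Averaged over treatments Atp5d rose by 0.32 (SE 0.08, 1.25-fold, adjusted p = 0.00746).

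The catalytic subunits did not pass. Atp5a1 (alpha) read 11.60, 11.56, 11.61, 11.42 and 11.74 in control and 11.41 to 11.55, median 11.52, in PGC-1alpha metastases given PBS. With phenformin it read 11.52, 11.55, 11.53, 11.54 and 11.47 against 11.33 to 11.64, median 11.48. The groups overlapped in both treatments, and the averaged difference was -0.06 (95% interval -0.18 to 0.06). Atp5b (beta) read 11.85, 11.84, 11.99, 11.69 and 11.98 in control and 11.96 to 12.12, median 12.03, in PGC-1alpha metastases under phenformin. Its averaged difference was 0.14 (SE 0.07, adjusted p = 0.141). Atp5e, the epsilon subunit, had -0.22 (SE 0.08, adjusted p = 0.0502).

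The rotor ring of the enzyme is built from subunit c, whose mature protein is the same from its 3 genes Atp5g1, Atp5g2 and Atp5g3. Atp5g2 read 8.80, 8.82, 8.98, 8.53 and 8.91 in control and 8.29 to 8.68, median 8.49, in PGC-1alpha metastases under phenformin. Only control replicate 4 lay inside the PGC-1alpha range (-0.32, SE 0.11, 1.25-fold lower, adjusted p = 0.0425). The call was lost without several arrays, control replicate 3 among them (-0.28, adjusted p = 0.0936). It was also lost with quantile normalisation applied again (-0.15, adjusted p = 0.372), with cyclic loess (-0.18, adjusted p = 0.302) and with the replicate number as a block (-0.30, adjusted p = 0.0712). Atp5g3 had -0.20 (SE 0.10, adjusted p = 0.164) and Atp5g1 -0.11 (SE 0.15, adjusted p = 0.633).

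The 5 membrane subunits Atp5j2, Atp5k, Atp5l, Atp5md and Atp5mpl did not pass in any comparison. Under phenformin they ranged from -0.20 to -0.04. The outermost was Atp5md, a small subunit at the interface of ATP synthase dimers, at 13.01, 13.00, 12.95, 13.22 and 13.05 in control and 12.75 to 12.94, median 12.84, in PGC-1alpha metastases. These groups did not overlap, while the difference of -0.20 (SE 0.08) had an adjusted p of 0.0811.

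Promoters of ATP synthase genes are shown because letters known to bind the partners of PGC-1alpha could be looked up beside the direction of their transcripts. RefSeq promoters (GRCm38.p6, 250 bases before to 50 after the start) were found for 34 of the 45 genes. Both strands were searched for GCGCATGC (NRF1), TCAAGGTCA and its shorter part AAGGTCA (ERRalpha), CCGGAAGT (GABP) and AAGATGGCG (YY1). NRF1 letters stood in 7 of 34 members (20.6%) and in 4.79% of tested genes. They were in Atp5g2, Atp5k, Atp5l, Cox6a1, Cycs, Uqcr11 and Uqcrc1. GABP letters stood in 4 members (11.8%) against 7.11% of tested genes, the short ERRalpha letters in 4 (11.8%) against 4.24%, and YY1 letters in 2 (5.88%) against 2.73%. The 3 promoters below are given 5′ to 3′ along the gene, with the matches in capitals. Atp5g2 carries the NRF1 letters on both strands at 1 place, Atp5g3 the full ERRalpha letters on the opposite strand, and Atp5h the GABP letters on the opposite strand.
Atp5g2, chr15:102670998-102671297, minus strand: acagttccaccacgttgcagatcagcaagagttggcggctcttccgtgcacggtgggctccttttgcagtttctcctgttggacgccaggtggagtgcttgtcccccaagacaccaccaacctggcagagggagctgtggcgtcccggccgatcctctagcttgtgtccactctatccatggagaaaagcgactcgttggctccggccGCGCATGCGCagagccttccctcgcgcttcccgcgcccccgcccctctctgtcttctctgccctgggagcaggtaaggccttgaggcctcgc
Atp5g3, chr2:73911277-73911576, minus strand: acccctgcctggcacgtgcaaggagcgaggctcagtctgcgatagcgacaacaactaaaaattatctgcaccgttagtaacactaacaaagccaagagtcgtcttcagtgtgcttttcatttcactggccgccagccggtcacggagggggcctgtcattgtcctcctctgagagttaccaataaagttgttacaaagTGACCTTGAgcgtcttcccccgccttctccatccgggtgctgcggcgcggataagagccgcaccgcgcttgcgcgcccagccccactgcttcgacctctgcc
Atp5h, chr11:115419870-115420169, minus strand: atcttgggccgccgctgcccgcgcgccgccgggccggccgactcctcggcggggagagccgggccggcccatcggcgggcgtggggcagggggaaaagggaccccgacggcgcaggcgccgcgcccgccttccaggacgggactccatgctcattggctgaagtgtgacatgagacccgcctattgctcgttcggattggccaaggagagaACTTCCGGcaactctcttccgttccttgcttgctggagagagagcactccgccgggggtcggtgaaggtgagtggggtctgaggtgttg
A match is only a run of letters. Of these 3 genes, Atp5g2 and Atp5h were called lower under phenformin, and Atp5g3 did not pass. Atp5o, Atp5c1, Atp5pb, Uqcrfs1 and Atp5d held none of these letters in their windows.

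In complex III only Uqcrfs1 passed. It encodes the Rieske iron-sulphur protein, which hands electrons on to cytochrome c1. Uqcrfs1 read 8.82, 8.84, 9.17, 8.78 and 8.78 in control and 8.29 to 8.67, median 8.44, in PGC-1alpha metastases under phenformin. All 6 PGC-1alpha arrays lay below all 5 controls (-0.41, SE 0.10, 1.33-fold lower, adjusted p = 0.00939). Under PBS the controls read 8.66, 8.92, 8.82, 8.67 and 8.89 and the PGC-1alpha arrays 8.53 to 8.83, median 8.68, with overlap (-0.12, SE 0.10, adjusted p = 0.584). The change of the line difference between treatments, tested as the interaction, was -0.29 (SE 0.15, adjusted p = 0.456). Under quantile normalisation applied again Uqcrfs1 no longer passed (-0.25, adjusted p = 0.0865).

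The 2 core proteins and cytochrome c1 had positive differences that did not pass. Uqcrc1 read 8.39, 8.69, 8.97, 8.5 and 9.28 in control and 8.74 to 9.18, median 9.01, in PGC-1alpha metastases under PBS. Uqcrc2 read 7.88, 8.0, 7.84, 8.10 and 7.75 against 7.95 to 8.29, median 8.16. Cyc1, the haem-bearing cytochrome c1, read 10.68, 11.15, 10.92, 11.13 and 11.10 against 11.13 to 11.33, median 11.17. Each pair of groups overlapped, with the PGC-1alpha arrays in the upper part of the range.

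Averaged over treatments the differences were 0.21 for Uqcrc1 (SE 0.10, adjusted p = 0.125), 0.19 for Uqcrc2 (SE 0.09, adjusted p = 0.103) and 0.19 for Cyc1 (SE 0.08, adjusted p = 0.0917). Cycs, the mobile carrier between complexes III and IV, had 0.19 as well (SE 0.09, adjusted p = 0.113), with 11.00, 11.29, 11.34, 11.59 and 11.39 in control and 11.36 to 11.68, median 11.49, in PGC-1alpha metastases under PBS. Under quantile normalisation applied again these differences were 0.32, 0.27, 0.27 and 0.26, and all 4 genes passed there. Among the small subunits, Uqcrb (-0.21, SE 0.08, adjusted p = 0.0559) and the hinge protein Uqcrh (-0.16, SE 0.06, adjusted p = 0.0695) had negative differences in the average. Uqcr10, Uqcr11 and Uqcrq lay between -0.08 and 0.14.

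None of the 17 tested complex IV genes taken by symbol passed in any of the 6 comparisons. Its 10 ubiquitous subunits other than Cox7a2l lay within -0.11 and 0.12 in the line comparisons, and their 95% intervals reached from -0.33 to 0.33 under PBS and from -0.33 to 0.25 under phenformin. Cox4i1, the subunit through which ATP regulates the enzyme, read 11.45, 11.60, 11.55, 11.50 and 11.65 in control and 11.51 to 11.65, median 11.62, in PGC-1alpha metastases under PBS. Cox5a, a subunit on the matrix side, read 11.03, 10.90, 10.94, 10.59 and 10.64 in control and 10.62 to 10.94, median 10.75, in PGC-1alpha metastases. The PGC-1alpha arrays of both genes lay within the range of the controls.

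Cox5b, the zinc-binding subunit, read 11.15, 11.43, 11.35, 11.48 and 11.53 in control and 11.38 to 11.61, median 11.51, in PGC-1alpha metastases under PBS. Cox6b1, which joins the monomers of the dimeric enzyme, read 10.07, 10.48, 10.17, 10.23 and 10.23 and 10.17 to 10.39, median 10.33. The groups overlapped for both. Cox5b had a difference of 0.12 (SE 0.10) under PBS and 0.04 (SE 0.10) under phenformin, and Cox6b1 had 0.06 (SE 0.10) and -0.06 (SE 0.10). Cox7a2l, which takes part in linking complexes III and IV into supercomplexes, had 0.31 under PBS (SE 0.13, adjusted p = 0.182) and 0.11 under phenformin (SE 0.13, adjusted p = 0.554). In the average over treatments Cox7a2l passed with quantile normalisation applied again (0.29, SE 0.09, adjusted p = 0.0227) and with cyclic loess (0.28, SE 0.09, adjusted p = 0.0245).

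The tissue-restricted isoforms of complex IV varied most between arrays. Cox7a1, Cox6a2 and Cox8b are the heart and skeletal muscle isoforms. In control replicate 3 under phenformin they read 9.48, 7.88 and 7.97, against 7.11 to 8.73, 6.79 to 7.43 and 4.85 to 6.29 in the other 21 arrays. This is the array with the high muscle markers. Control replicate 5 under PBS was the next highest for Cox7a1 (8.73) and Cox8b (6.29), with a muscle marker mean of 6.83. PGC-1alpha replicate 3 had higher marker means, 7.12 under phenformin and 6.96 under PBS. There Cox7a1 read 7.73 and 7.42, Cox6a2 6.79 and 6.94, and Cox8b 5.95 in both.

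**Figure D4:**
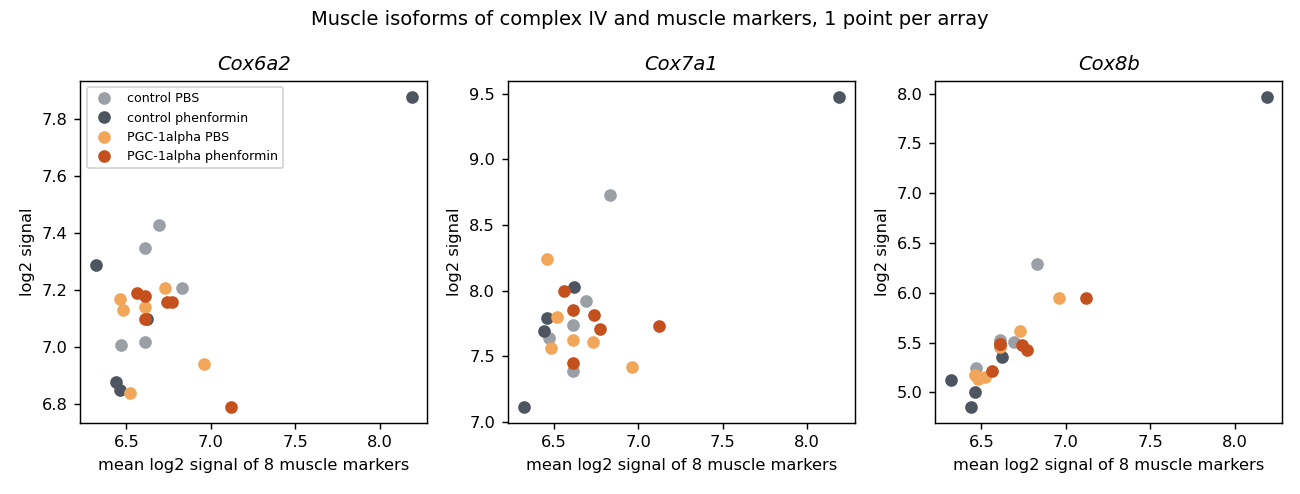
Log2 signal of Cox6a2, Cox7a1 and Cox8b (vertical) against the mean log2 signal of 8 heart and skeletal muscle markers (horizontal), 1 point per array, coloured by group. In each panel 1 control array under phenformin, at a marker mean of 8.19, lies at the upper right, apart from the other 21.

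None of the restricted isoforms passed, and the large spread made their intervals wide. Cox8b had a within-group SD of 0.678, beside a median of 0.139 over complex IV, and its line difference under phenformin was -0.15 with a 95% interval from -0.91 to 0.60. Cox7a1 had -0.26 (SE 0.28) and Cox6a2 -0.10. Without control replicate 3 under phenformin all 3 differences changed sign, to 0.43 for Cox8b (SE 0.19, adjusted p = 0.108), 0.10 for Cox7a1 (SE 0.21, adjusted p = 0.753) and 0.07 for Cox6a2 (SE 0.12, adjusted p = 0.716), and none passed. Cox4i2, the isoform of subunit IV known from lung, read 7.60, 7.14, 7.67, 7.16 and 7.44 in control and 6.90 to 7.62, median 7.13, in PGC-1alpha metastases under PBS, with overlap (-0.20, SE 0.18). Cox6b2 and Cox8c, known from testis, had -0.37 (SE 0.18, adjusted p = 0.132) and 0.03 (SE 0.13) under phenformin.

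The design also compares phenformin with PBS within each line; these comparisons share arrays with those between the lines. No gene on the array passed for phenformin against PBS in control metastases, in PGC-1alpha metastases, or in the interaction of line and treatment, so 0.0% of all tested genes were called in each. At an unadjusted p under 0.05 there were 1498, 674 and 1724 of the 15545 genes, and 0, 1 and 0 of the 44 members. That 1 member was Uqcrfs1 in PGC-1alpha metastases (-0.21, SE 0.10, unadjusted p = 0.0448 in the limma fit, adjusted p = 0.957).

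In control metastases, phenformin minus PBS had medians of -0.02 for complex III, -0.02 for complex IV and -0.05 for the ATP synthase. In PGC-1alpha metastases the medians were -0.09, -0.05 and -0.11. There all 9 genes of complex III and all 17 of the ATP synthase had negative differences, the furthest being -0.22 for Uqcr11 (SE 0.17) and -0.25 for Atp5c1 (SE 0.14). Bright genes as a whole leaned the same way: among the 3109 brightest of the tested genes, 74.2% had a negative difference, with a median of -0.06. The interaction medians were -0.03 for complex III, 0.00 for complex IV and -0.13 for the ATP synthase. Without control replicate 3 under phenformin they were -0.028, 0.036 and -0.088. The medians for phenformin minus PBS in control metastases were then -0.018, -0.075 and -0.081, in the same order.

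The level of a complex can also be followed array by array, as the mean log2 signal of its tested genes. With PBS the ATP synthase mean was 10.24 ± 0.05 (SD, n = 5) for the control line and 10.14 ± 0.07 (n = 6) for the PGC-1alpha line. With phenformin it was 10.22 ± 0.13 (n = 5) and 10.02 ± 0.08 (n = 6). The ranges were 10.09 to 10.41 and 9.96 to 10.18 under phenformin, so they overlapped. Complex III had 10.47 ± 0.12 and 10.50 ± 0.03 under PBS, and 10.41 ± 0.19 and 10.40 ± 0.06 under phenformin. Complex IV had 9.90 ± 0.08 and 9.87 ± 0.04 under PBS, and 9.90 ± 0.22 and 9.85 ± 0.06 under phenformin, where its highest control array, at 10.28, was replicate 3. Without that array the control means under phenformin were 10.36 ± 0.18 for complex III, 9.81 ± 0.05 for complex IV and 10.18 ± 0.09 for the ATP synthase (SD, n = 4), so the complex IV mean of the control line then lay below that of the PGC-1alpha line.

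Correlations among members of the 3 complexes from array to array were low on average, and above that of pairs of the brightest genes. The mean correlation of deviations from the group means, over 22 arrays and all pairs of genes, was 0.190 within complex III, 0.176 within complex IV and 0.2245 within the ATP synthase. Between complexes it was 0.185 to 0.213. Over all pairs of tested genes it was 0.0054, and over pairs of the 3109 brightest genes it was 0.058. These pairs share arrays and normalisation, so the values are a description. They include control replicate 3 under phenformin, and its part in them was not tested.

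Brightness moved with the line difference as well. Among the members, 7 of 9 genes of complex III, 11 of 17 of complex IV, 14 of 17 of the ATP synthase and Cycs lay among the 3109 brightest of the 15545 tested genes. Under phenformin these brightest genes had a median difference of -0.13 with 16% called lower and 3.12% called higher, while the 3109 dimmest genes had a median of 0.18. Of the members called there, Atp5g2, Atp5pb and Uqcrfs1 lay in the next brightest 3109 genes (median -0.14, 18.9% called lower). Atp5c1 lay in the middle 3109 (median -0.02, 12.2% called lower). In the average over treatments 21.3% of the brightest genes were called lower. The ATP synthase median of -0.20 under phenformin became -0.091 under cyclic loess.

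**Figure D5:**
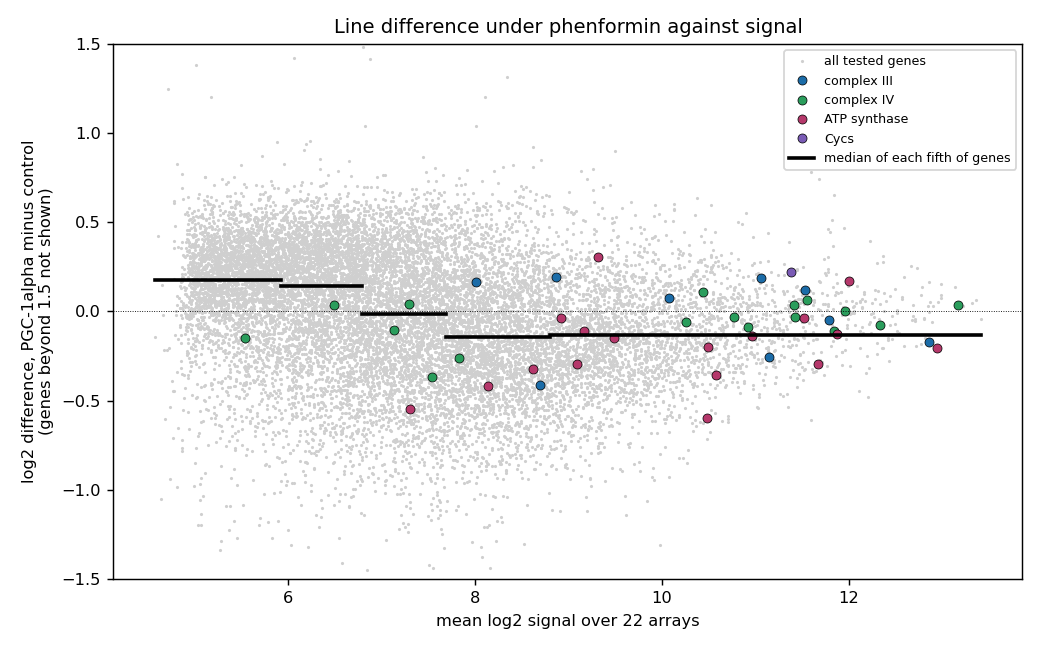
Log2 difference between PGC-1alpha and control metastases under phenformin (vertical) against the mean log2 signal over 22 arrays (horizontal) for all 15545 tested genes, with members coloured by complex. Black bars give the median in 5 equal groups of genes by signal, from 0.18 at the dimmest to -0.13 at the brightest. Most ATP synthase genes lie at or below the brightest bar, and most complex IV genes lie near 0.

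The assembly factors of these complexes were followed as a list of 33 genes, of which 29 were tested. Their median difference was -0.13 under PBS and -0.24 under phenformin. Under PBS 1 was called lower, the copper chaperone Cox17 (-0.45, SE 0.11, adjusted p = 0.0273). Under phenformin 16% of the 3109 brightest genes were called lower and 3.12% higher, but that set was not matched by signal to the 29 factors. Of the 29, 6 were called lower (20.7%) and 1 higher (3.45%), beside 11.1% and 10.0% of all tested genes. Those lower were Cox11 (-0.80, SE 0.17, adjusted p = 0.00386) and Sco1 (-0.46, SE 0.12, adjusted p = 0.0124), which deliver copper to complex IV, Lrpprc (-0.62, SE 0.16, adjusted p = 0.0126), which stabilises mitochondrial messenger RNAs, and Coa7, Cox19 and Uqcc2, between -0.68 and -0.33. Coa4 was higher (0.44, SE 0.14, adjusted p = 0.033). Averaged over treatments 8 were called lower (27.6%) and 1, Coa4, higher, beside 13.3% lower and 11.3% higher among all tested genes. Without control replicate 3 under phenformin the counts under phenformin were again 6 lower and 1 higher, with Ttc19 called and Cox19 not (-0.30, adjusted p = 0.0691), and the median was -0.225.

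Ndufa4, a subunit of complex IV despite a name that points to complex I, was lower under phenformin (-0.29, SE 0.09, adjusted p = 0.0286), and did not pass without control replicate 3 (-0.27, SE 0.10, adjusted p = 0.0576). Atpif1, the inhibitor that stops the ATP synthase from running in reverse, had -0.16 (adjusted p = 0.246).

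Markers of other cells moved with the lines too, in both directions. Of 6 measured neutrophil markers, Csf3r, Cxcr2, S100a8 and S100a9 were lower in PGC-1alpha metastases in both treatments (medians of the list -0.81 and -0.65), and their mean log2 signal ran from 7.84 to 8.49 in control and 7.36 to 7.73 in PGC-1alpha metastases under phenformin. The 8 alveolar type 1 markers had a mean of 9.55 to 9.71 in control and 8.94 to 9.44 in PGC-1alpha metastases under PBS, and the 10 alveolar type 2 markers 10.86 to 11.11 and 10.55 to 11.06. Under phenformin both lists overlapped between the lines, with 9.25 to 9.72 and 9.10 to 9.64 for type 1 and 10.77 to 11.16 and 10.51 to 11.06 for type 2. Endothelial markers ran from 7.87 to 8.98 in control and 7.35 to 8.35 in PGC-1alpha metastases under PBS, and from 7.91 to 8.43 and 7.51 to 8.27 under phenformin. Of club and ciliated markers 0 of 5 tested passed, with means of 6.30 to 8.63 and 5.72 to 7.83 under PBS and 6.25 to 8.38 and 5.88 to 9.51 under phenformin. Macrophage markers leaned higher in PGC-1alpha metastases under PBS (6.99 to 7.41 in control, 7.35 to 7.85). Under phenformin they overlapped (7.19 to 7.63 in control, 7.17 to 7.78). T and NK markers ran from 6.08 to 6.45 in control and 5.52 to 6.2 in PGC-1alpha metastases under PBS, and from 5.73 to 6.32 and 5.66 to 6.24 under phenformin. Without control replicate 3 under phenformin, Mrc1 was called higher and Emp2 and Gzma lower under PBS, besides neutrophil markers. Under phenformin Marco, Cd8a, Actc1 and Ckm were then called higher, and Aqp5, Lamp3 and Napsa lower. The part of all these markers in the differences of the members was not tested. The reference gene table also names pseudogenes for 8 of the members, Atp5c1 and Atp5pb among them, and whether the probe sets read such copies was not tested.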

How the data were processed

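Lung metastases of 4 groups were profiled on arrays, 22 in all. The authors deposited log2 signals, already normalised, for 28815 probe sets; the software was oligo, per the submitters' processing notes, with version, background correction and normalisation not given in the sources used here. A second table was not used because its 22 value columns match no sample name. Each gene was represented by its probe set of highest mean. A gene was tested if above the 25th percentile of its array in at least 5 arrays. A linear model of the 4 groups was fitted in R 4.3.3 by limma 3.58.1 (lmFit, then eBayes; residual degrees of freedom 18, prior 5.67), with Benjamini-Hochberg adjustment over 15545 genes. The method was tested on simulated data with independent normal noise for each gene. Such data hold no shift between arrays and no outlying array, so effects of these on the calls could not be checked. The number of arrays limits the precision. Figures used Python 3.11.15, pandas 2.3.3 and matplotlib 3.10.9.

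Named genes were the members that passed, fixed members by role and the muscle isoforms. Members, gene lists and tests were chosen with earlier results of these data known. The labels number samples within groups. Of 31 pairs of equal number in different groups, 7 had a correlation of deviations over 0.1, with values from -0.19 to 0.31. The highest was replicate 3 of the PGC-1alpha line under phenformin and PBS. Pairs of unequal number were not compared, so whether equal numbers pair the samples was not tested. Gene names and chromosomes came from RefSeq (GRCm38.p6). Mitochondrially encoded subunits and protein sequences were not analysed here.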

Additional observations from a re-analysis of the deposited data

Results flagged for a closer look

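A single array stood away from the rest of its group, by more than the 95% critical value of Dixon's test, in 13 of the 176 sets of a member and a group. Chance flags about 1 in 20 such sets, or 8.8 of 176.

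Of the 13, 3 came from control replicate 3 under phenformin, the array with the high muscle markers: Cox8b read 7.97 with the next array at 5.35, Cox4i1 read 11.72 with the next at 11.48, and Uqcrfs1 read 9.17 with the next at 8.84. Control arrays under PBS gave 4: Cox8b at 6.29 and Atp5c1 at 8.03 in replicate 5, Atp5o at 11.25 in replicate 1, and Atp5k low, at 8.60, in replicate 3. Among PGC-1alpha arrays under phenformin, replicate 1 was high for Cox7a2 (12.17), Uqcrq (11.65) and Atp5j2 (11.10), replicate 4 was low for Cox5b (11.02) and replicate 3 low for Cox6a2 (6.79). Among PGC-1alpha arrays under PBS, replicate 6 was high for Uqcrq (11.80).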

How the results depend on the processing

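The settings changed 1 at a time were the filter, the scaling, the samples fitted, array weights, an intensity trend, the choice of probe set, a replicate block and leaving out each array; leaving out the 4 arrays of lowest weight was chosen after seeing the data. No called value of a named member changed sign, and none passed after a change of sign. Uncalled values did change sign in 13 of 66 differences between the lines and in 33 of 66 for phenformin or the interaction, the latter all at or below 0.138 in size. Under phenformin the line difference changed sign with arrays centred on their medians, quantile normalisation again and cyclic loess for Atp5a1 (0.006, 0.036 and 0.028) and Cox5a (0.012, 0.075 and 0.066), and with the latter 2 for Cox6b1 (0.069 and 0.062). Without the 4 arrays it became 0.155 for Cox6a2 and 0.44 for Cox8b. Without 1 array it ran from -0.189 to 0.068 for Cox6a2, -0.49 to 0.103 for Cox7a1 and -0.353 to 0.426 for Cox8b, each positive without control replicate 3, and from -0.055 to 0.178 for Cox4i2 and -0.001 to 0.114 for Cox5b. Under PBS Cox7a1 ran from -0.299 to 0.037. In the average Cox5a became 0.03 and 0.016 with the rescalings, Cox6b1 -0.019 with array weights and -0.028 without the 4 arrays (-0.022 to 0.031 without 1 array), Cox4i2 0.044 and Cox8b 0.213 without the 4 arrays, and Cox8b -0.273 to 0.116 without 1 array. No member passed under PBS in any setting. Under phenformin the 6 called members became 3 with quantile normalisation again and with cyclic loess (1 higher, 2 lower), 3 without the 4 arrays, and 3 to 7 when 1 array was left out, with 3 without PGC-1alpha replicate 2, control replicate 3 or control replicate 5. The cause was not tested. Atp5o and Atp5c1 passed in every setting run; Uqcrfs1 passed without each array but not with quantile normalisation again (-0.247, adjusted p = 0.0865), cyclic loess (-0.266, adjusted p = 0.067) or without the 4 arrays (-0.329, adjusted p = 0.0563). Atp5pb, Atp5h and Atp5g2 were each lost without several arrays and with either rescaling, and Atp5h and Atp5g2 also with the replicate block. The 8 called in the average became 13 with an intensity trend (1 higher, 12 lower), 10 with either rescaling (6 higher, 4 lower), and 7 to 11 without 1 array. The complex III median under phenformin was 0.201 with quantile normalisation again and -0.09 to 0.126 without 1 array, turning negative without control replicate 2; the complex IV median was -0.08 to 0.041 without 1 array, positive without control replicate 3, and the ATP synthase median was -0.091 with cyclic loess. With the replicate block 4 members passed under phenformin and 7 in the average, and that block changed the sign of no named value. Over all genes, 47.5% of calls under phenformin were higher, against 58.1% with quantile normalisation again and 58.6% with arrays centred on their medians; under PBS 41.3% were higher, against 51.8% with quantile normalisation again. All calls under PBS numbered 455, 86 without the 4 arrays and 191 to 491 without 1 array; under phenformin 3283, and 2189 without PGC-1alpha replicate 2. Signal over background limits Cox7b2, which was not tested, and Cox8b.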
